A study of Mus musculus with 8 samples.

Results

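Class 5, 6 and 7 semaphorins are the membrane-bound semaphorins of vertebrates outside class 4, and 7 mouse genes encode them: Sema5a, Sema5b, Sema6a, Sema6b, Sema6c, Sema6d and Sema7a. They were taken by symbol from a RefSeq table of 21887 protein-coding genes, in which all 7 were found, and every CUT&Tag peak within 50 kb of each gene was collected. CUT&Tag maps a protein on chromatin by sending a transposase to it with an antibody. The study profiled 3 targets: CHD4, the ATPase of the NuRD remodelling and deacetylase complex, the H3K4me3 mark that histones carry at active promoters, and the acetyltransferase p300 of enhancers and promoters. The cells were iMOPs, a mouse line of immortalized otic progenitors with the genotype given as wild-type and the treatment as none, either proliferating with 20 ng/ml bFGF or turned into neurons in Neurobasal medium with 1 µM K03861, an inhibitor of cyclin-dependent kinases. Each antibody and state had 1 library of 500000 cells, so the states could not be compared with a test. A state is therefore described by whether a peak was listed, how wide it was and where it ranked in its own list.

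Semaphorins steer growing axons, most often by repulsion, and act through plexin receptors on the axon. Class 5 and class 6 proteins span the membrane, and class 6 proteins can also act as receptors in the cell that carries them. Sema7a is held to the membrane by a GPI anchor and signals through plexin-C1 and integrins. In the inner ear, semaphorins are among the cues that shape the processes of spiral ganglion neurons, and Sema5b has a described role in refining their branches.

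The lists differed in length, which bears on every count below. They held 4919 CHD4, 7472 H3K4me3 and 3144 p300 peaks in proliferating cells and 4599, 5625 and 965 in neurons. The lowest total signal in the p300 list was 11491 in proliferating cells and 68997 in neurons, in units of unstated scaling. Read depth is unknown. The 2 IgG libraries were not analysed here, and whether the peaks were called against them is not given. As a check of the labels, H3K4me3 lay at an end of 3 of 5 otic progenitor markers in proliferating cells and 2 in neurons, and of 2 of 5 neuron markers in both states. It was at no end of the 4 hair cell and 4 glial markers in either state, and at 2 of 4 mesenchyme markers in both. Of the neuron markers, Neurod1, Isl1 and Pou4f1 had no H3K4me3 peak at an end in either state. Among all protein-coding genes, 37.6% had H3K4me3 at an end in proliferating cells and 30.0% in neurons. The neuron markers had the same count in both states, so they do not tell the labels apart. A peak is not a measure of expression.

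The annotated starts of 5 of these genes are shown first, because the presence of a peak there is what separates them. The sequences are RefSeq promoters of GRCm38.p6, which shares its coordinates with the mm10 build of the lists, and reach from 250 bases before a transcript start to 50 after it, printed 5′ to 3′ on the strand of the gene. At Sema6c (chr3:95160170-95160469, + strand) and Sema5b (chr16:35541112-35541411, + strand) the 50-bp region of highest CHD4 signal fell inside this window, and capitals mark it. At Sema7a (chr9:57939862-57940161, + strand) and Sema6b (chr17:56140294-56140593, - strand) it fell outside the window. Sema5a (chr15:32244563-32244862, + strand) had no CHD4 peak. In the sequences of Sema5a, Sema7a and Sema6b, capitals mark CpG dinucleotides.
Sema6c: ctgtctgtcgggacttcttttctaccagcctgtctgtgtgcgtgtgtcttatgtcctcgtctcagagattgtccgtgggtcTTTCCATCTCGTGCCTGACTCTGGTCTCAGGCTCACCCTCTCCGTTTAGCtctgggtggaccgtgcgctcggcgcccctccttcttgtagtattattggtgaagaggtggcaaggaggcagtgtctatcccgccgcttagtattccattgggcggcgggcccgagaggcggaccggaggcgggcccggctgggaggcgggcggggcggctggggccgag
Sema5b: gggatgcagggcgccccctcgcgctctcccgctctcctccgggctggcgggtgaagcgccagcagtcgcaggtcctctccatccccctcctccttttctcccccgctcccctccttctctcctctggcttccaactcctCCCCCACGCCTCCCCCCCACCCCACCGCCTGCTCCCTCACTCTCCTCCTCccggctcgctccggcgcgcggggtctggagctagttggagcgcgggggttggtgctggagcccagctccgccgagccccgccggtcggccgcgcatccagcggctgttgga
Sema5a: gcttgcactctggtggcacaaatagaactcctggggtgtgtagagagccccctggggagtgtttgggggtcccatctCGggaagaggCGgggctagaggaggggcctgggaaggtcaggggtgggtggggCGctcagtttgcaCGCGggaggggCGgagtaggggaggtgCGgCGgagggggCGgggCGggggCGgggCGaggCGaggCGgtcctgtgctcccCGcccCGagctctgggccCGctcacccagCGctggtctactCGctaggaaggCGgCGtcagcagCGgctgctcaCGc
Sema7a: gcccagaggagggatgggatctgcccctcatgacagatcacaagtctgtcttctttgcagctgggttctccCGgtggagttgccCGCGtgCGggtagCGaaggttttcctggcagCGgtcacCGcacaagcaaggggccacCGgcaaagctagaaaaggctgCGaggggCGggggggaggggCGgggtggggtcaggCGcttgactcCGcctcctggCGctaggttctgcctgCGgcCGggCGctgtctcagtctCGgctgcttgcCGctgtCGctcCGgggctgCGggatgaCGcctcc
Sema6b: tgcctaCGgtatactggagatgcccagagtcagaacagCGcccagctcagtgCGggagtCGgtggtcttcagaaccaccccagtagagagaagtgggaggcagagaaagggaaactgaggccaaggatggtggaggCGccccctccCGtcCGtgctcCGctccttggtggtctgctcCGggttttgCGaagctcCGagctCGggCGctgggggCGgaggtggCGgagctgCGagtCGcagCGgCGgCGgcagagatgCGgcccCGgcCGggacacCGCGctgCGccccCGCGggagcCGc

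All 5 starts were rich in CpG. Sema6b had 29 CpG in its 300 bases, Sema5b had 27, and Sema6c, Sema7a and Sema5a had 23 each, against a median of 7 over 32851 promoters of the table. A count of 23 stood at the 80.0th percentile. Sema5a, which had no peak in any list, thus had as many CpG at its start as Sema6c, which had peaks in 5 of the 6 lists. The first start of Sema6d, also without a peak, had 14 CpG (65.4th percentile). The second start of Sema6c had 3 CpG (31.4th percentile) and was covered by peaks of 4 lists. The region of highest CHD4 signal at Sema5b was 86.0% C or T on the printed strand, against 65.7% in the whole window. That of Sema6c was 72.0%, against 54.3%. At Sema5b the bases just before the region are also mostly C or T, so this trait is not particular to it. Other regions of highest signal were not compared. The GC box GGGCGG, which itself contains a CpG, was searched on both strands and occurred 5 times at Sema5a, 3 at Sema6c, 2 at Sema7a, 2 at the first start of Sema6d and 1 at Sema6b. It was found in 35.7% of all promoters and had no match at Sema5b. The E-box CANNTG had 1 match at Sema7a, 1 at the first start of Sema6d, 2 at its second start and 3 at the second start of Sema6c, and 72.3% of promoters held it. The match at the first start of Sema6d was of the form CACGTG, which is an E-box with a CpG in it and was in 7.15% of promoters. Of the 6 members in the table, 0 held GTGGGAA at any start, the core motif of the Notch effector RBPJ, on either strand, against 6.38% of promoters.

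CHD4 was listed within 1 kb of a gene end at 4 of the 7 genes in each state, 3 of them the same. Sema6a, Sema6b and Sema6c had it in both states, Sema5b in proliferating cells only and Sema7a in neurons only. Among all protein-coding genes, 11.8% had CHD4 at an end in proliferating cells and 9.95% in neurons. CHD4 was at an end in both states at 7.49% of genes, and at 4.27% and 2.45% it was in the proliferating or the neuron list alone. H3K4me3 was at an end of Sema5b, Sema6a and Sema6c in proliferating cells, 3 of 7, and of these and Sema7a in neurons, 4 of 7. The shares of all genes were 37.6% and 30.0%. p300 was at an end of Sema6a and Sema6c in proliferating cells, 2 of 7 against 8.44% of all genes, and of 0 of 7 in neurons against 1.24%. Of the members with H3K4me3 at an end, 3 of 3 in proliferating cells and 3 of 4 in neurons also had CHD4 at an end, against 27.1% and 23.6% of all genes with H3K4me3 there. With each peak placed by its region of highest signal, which lies over 1 kb from the end at Sema6a and Sema6b, 2 of 7 members had CHD4 at an end in each state. With the stronger 50% of each list, Sema5b and Sema6b lost the proliferating call and Sema6b the neuron one.

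**Figure D1:**
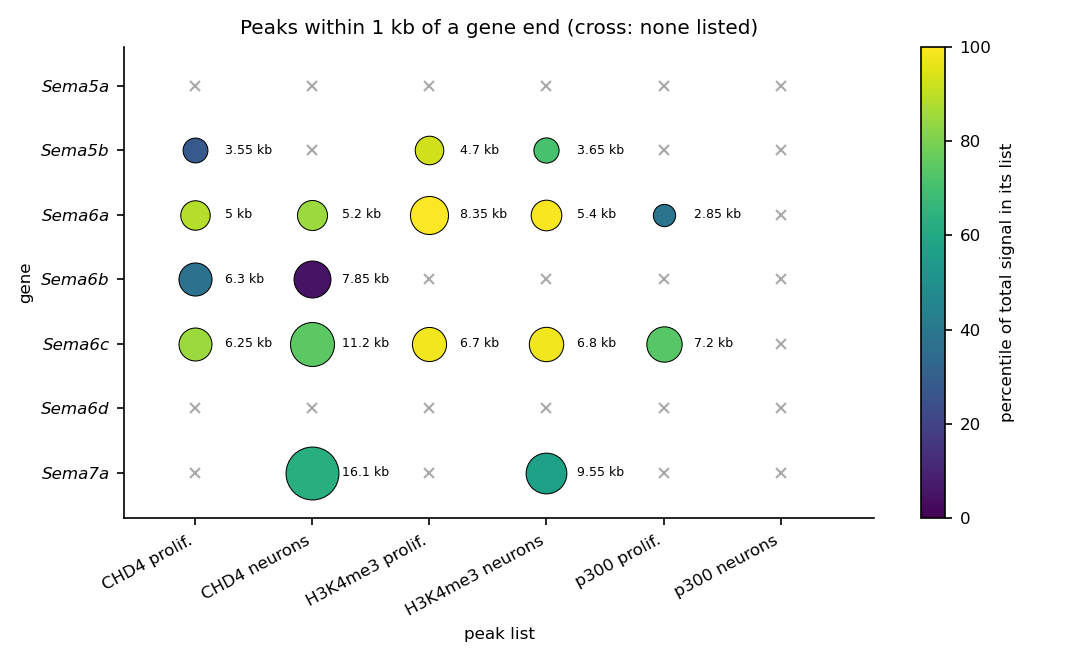
Peaks within 1 kb of an end of the 7 genes (rows) in the 6 peak lists (columns). Circle area grows with the width of the peak, printed beside it in kb, colour gives the percentile of total signal within the list, and a cross marks that no peak was listed. Sema6a and Sema6c are marked in 5 lists, Sema6b by CHD4 alone, Sema7a in neurons only, and Sema5a and Sema6d in none.

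Sema6a and Sema6c had the same set of calls and, in each list with a peak at an end of a member, the highest percentiles of total signal at the gene ends. Both had CHD4, H3K4me3 and p300 at 1 end in proliferating cells and CHD4 and H3K4me3 there in neurons. This set of 6 calls was shared by 884 of the 21887 genes, both members included. Of the genes listed further on as parts of semaphorin signalling, only Plxnc1, which encodes a Sema7a receptor, had it too.

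Sema6a encodes a ligand of plexin-A2 and plexin-A4 (chromosome 18, 47245254 to 47371200). Its proliferating H3K4me3 peak ran from 47363451 to 47371800 at the end with the higher coordinate and was 8350 bp wide. It ranked 42nd of 7472 by total signal. In neurons the H3K4me3 peak ranked 64th of 5625 and ran from 47365851 to 47371250, a width of 5400 bp. The neuron peak lay wholly inside the proliferating one, and most of the difference was on the side towards the gene body. The neuron-to-proliferating width ratio was 0.647, the 3.22nd percentile of the same ratio over 5439 H3K4me3 peaks that matched 1 to 1 between the states, whose median was 1.06.

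CHD4 at Sema6a hardly differed between the states in place or rank. The proliferating peak ran from 47365901 to 47370900 (5000 bp, 89.0th percentile of total signal) and the neuron peak from 47365851 to 47371050 (5200 bp, 85.0th percentile). A percentile is the share of peaks in the list at or below the value. The region of highest CHD4 signal started at the same base in both lists, 47368951, more than 1 kb inside the gene. Both CHD4 peaks lay wholly inside the H3K4me3 peak of their state. The proliferating p300 peak, from 47368601 to 47371450, had its highest signal from 47369001 to 47369050, inside the CHD4 region of highest signal (47368951 to 47369050), and stood at the 38.5th percentile. In neurons the nearest p300 peak was 93.3 kb from the gene. No transcript start for Sema6a was in the promoter table, and the end is named by its coordinate.

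Sema6c, another class 6 member, is a short gene of 13.6 kb (chromosome 3, 95160420 to 95174050, + strand). CHD4 covered its first start in both states. The proliferating peak ran from 95156801 to 95163050 (6250 bp, 84.9th percentile of total signal) and the neuron peak from 95158251 to 95169400 (11150 bp, 74.7th percentile). The neuron peak began later and reached further into the gene, covering 65.9% of the gene span against 19.3% in proliferating cells. The region of highest CHD4 signal was the same 50 bp in both lists, centred at -144 bp relative to the start and printed in capitals above. The width ratio of 1.78 stood at the 74.5th percentile of 2934 CHD4 peaks matched 1 to 1, with a median of 1.33, so CHD4 peaks were generally wider in the neuron list.

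H3K4me3 at Sema6c kept its extent between the states. It ran from 95158551 to 95165250 in proliferating cells (rank 130 of 7472) and from 95158451 to 95165250 in neurons (rank 123 of 5625), with the same edge inside the gene. The region of highest signal was centred 6 bp after the start in proliferating cells and 556 bp after it in neurons. The proliferating p300 peak ran from 95158151 to 95165350, a width of 7200 bp, and contained the whole H3K4me3 peak. It stood at the 73.7th percentile of total signal but the 21.7th of highest signal, that is, it was wide and low. In neurons the nearest p300 peak was 53.8 kb away. The second annotated start of Sema6c, at 95164339, was covered by every list except CHD4 in proliferating cells and p300 in neurons.

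Because the neuron p300 list is short, the absence of p300 in neurons at these gene ends was set against lists of equal size. With the proliferating p300 list trimmed to its 965 strongest peaks, which leaves out 69.3% of it, Sema6c still had p300 and Sema6a did not. Of all p300 peaks, 76.5% of those in proliferating cells overlapped none in neurons. How depth or threshold bear on the neuron list was not tested.

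**Figure D2:**
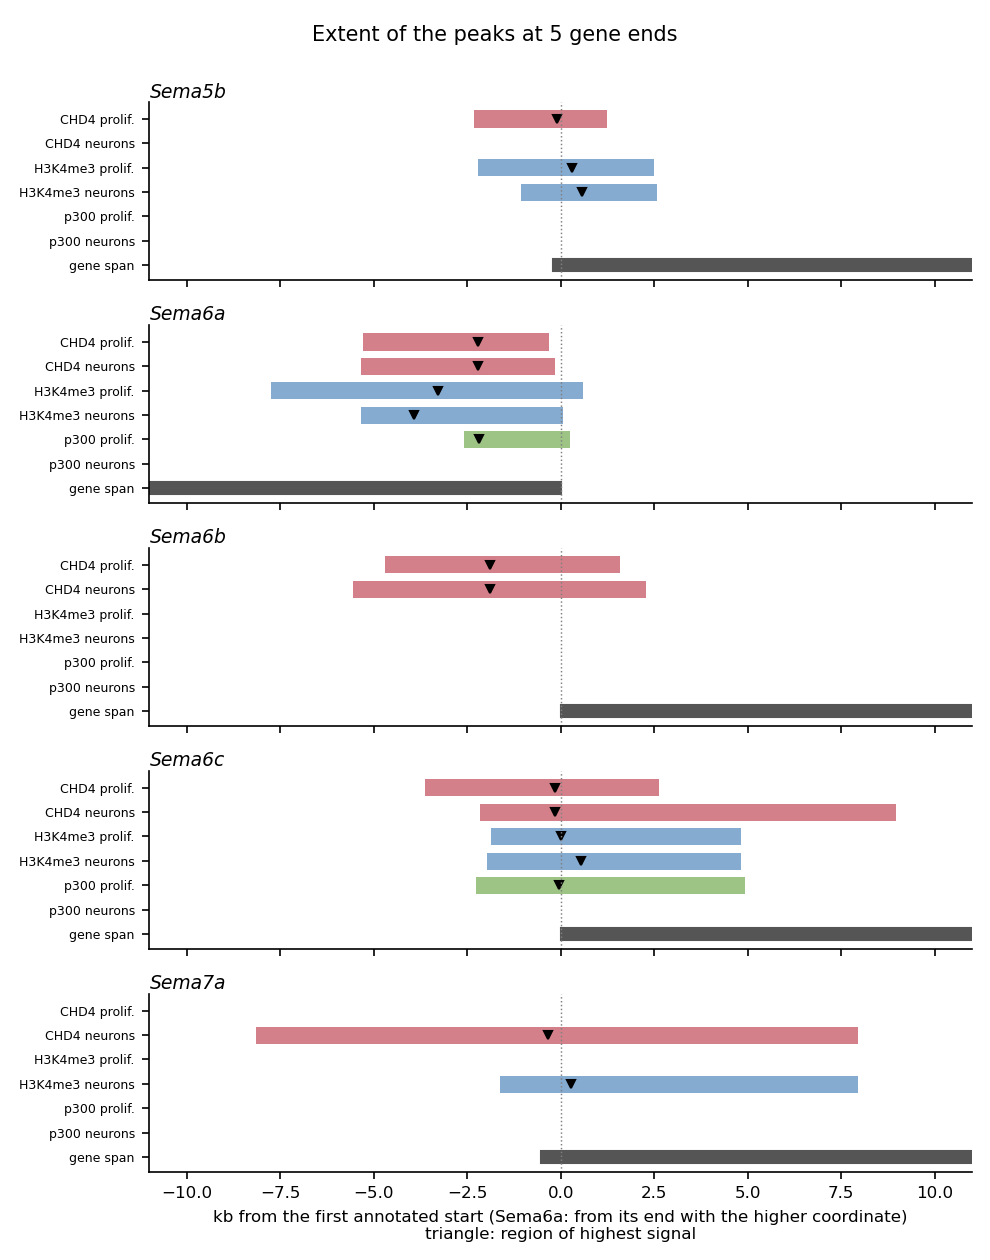
Extent of the peaks at the gene ends of 5 members, in kb from the first annotated start (Sema6a: from its end with the higher coordinate); bars are peaks, triangles the region of highest signal, and the dark bar is the gene span. The CHD4 triangles coincide between the states at Sema6a, Sema6b and Sema6c, the neuron CHD4 bar is widest at Sema7a, and Sema6b has no other mark.

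Sema7a differed from the other members in having all of its peaks in neurons only. It encodes the GPI-anchored semaphorin, which promotes the growth of several kinds of axon (chromosome 9, 57939596 to 57962865, + strand). The CHD4 peak at its start ran from 57931951 to 57948050, and at 16100 bp it was wider than or as wide as 96.8% of neuron CHD4 peaks. It stood at the 63.0th percentile of total signal and the 1.52nd of highest signal, so the signal was spread out and had no high summit. The H3K4me3 peak, from 57938501 to 57948050, was 9550 bp wide (97.5th percentile of width) and also low, at the 4.50th percentile of highest signal. It ended at the same base as the CHD4 peak and lay wholly inside it. Together they covered 36.3% of the gene span.

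In proliferating cells the nearest peaks to Sema7a were 107 kb away for CHD4, 107 kb for p300 and 172 kb for H3K4me3. Few H3K4me3 peaks of the neuron list had no counterpart in proliferating cells: 1.90% overlapped none there, and 0.612% of all genes had H3K4me3 at an end in neurons only. CHD4 and H3K4me3 were both at an end in neurons only at 17 genes, 0.0777% of all genes. Without p300 in either state, as at Sema7a, they were 16. Among them was Plxnd1, which encodes a plexin receptor of class 3 semaphorins. Named after the values were seen, the others were Lrrn2, Plppr3, Hr, Shisa8, Slc1a2, Fam20c, Prmt8, Nav2, Htra1, Rasd2, Osgin1, Necab2, Elavl3 and Pxylp1. Osgin1 and Necab2 are neighbours on chromosome 8, with ends at 119446257 and 119446719, so the same peaks can call both. Whether these genes share a function was not tested.

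Away from the start, Sema7a had 1 more CHD4 peak in neurons only, 24.6 kb beyond the gene, from 57987501 to 57995600 (77.6th percentile of total signal). It overlapped a p300 peak from 57992651 to 57995550 that was also in the neuron list only (32.6th percentile), and no H3K4me3 peak. The nearest annotated gene end was not that of Sema7a but of Cyp11a1, the first enzyme of steroid hormone synthesis, 2.42 kb away. Of all neuron p300 peaks, 24.4% overlapped no proliferating one. To which gene such a peak belongs cannot be read from the lists.

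Sema5b showed the opposite order at its start. It encodes a transmembrane repellent with thrombospondin repeats (chromosome 16, 35541154 to 35664261, + strand). In proliferating cells a CHD4 peak ran over the start from 35539051 to 35542600 (3550 bp), at the 27.5th percentile of total signal and the 9.90th of highest signal. Its highest signal was centred at -86 bp relative to the start, and 97.2% of it was shared with the H3K4me3 peak from 35539151 to 35543850. In neurons no CHD4 was listed there, while H3K4me3 remained, from 35540301 to 35543950. H3K4me3 stood at the 92.9th percentile of total signal in proliferating cells and the 71.0th in neurons, and its width ratio of 0.777 was at the 8.53rd percentile of matched peaks.

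Inside Sema5b, 2 CHD4 peaks were listed in neurons only. Both, like the proliferating peak at the start in its own list, were in the weaker 50% by total signal. The first, from 35612401 to 35616050, had its highest signal 72.8 kb after the start and stood at the 29.5th percentile of total signal. The second, from 35650951 to 35655150, had its highest signal 111 kb after the start and stood at the 4.44th percentile, near the bottom of the list. Neither overlapped H3K4me3 or p300. No p300 peak lay within 50 kb of the gene, the nearest being 330 kb away in both states. The set of calls at the gene ends, CHD4 in proliferating cells only with H3K4me3 in both states, was shared with 370 other genes, among them Sema4c.

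Sema6b had CHD4 at its start with neither of the other marks in either state. It encodes a ligand of plexin-A4 (chromosome 17, 56123085 to 56140343, - strand). The proliferating peak ran from 56138751 to 56145050 (6300 bp) and the neuron peak from 56138051 to 56145900 (7850 bp). Both had their highest signal in the same 50 bp, centred 1.88 kb before the first start. Both were low, at the 6.73rd and 1.94th percentile of highest signal. By total signal they stood at the 37.6th and 4.87th percentile, the neuron peak at rank 4377 of 4599. The nearest H3K4me3 peaks were 39.6 kb and 39.8 kb from the gene, at the ends of other genes. CHD4 in both states without H3K4me3 or p300 at an end was found at 62 genes, 0.283% of all, and at none of the other genes of semaphorin signalling examined.

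**Figure D3:**
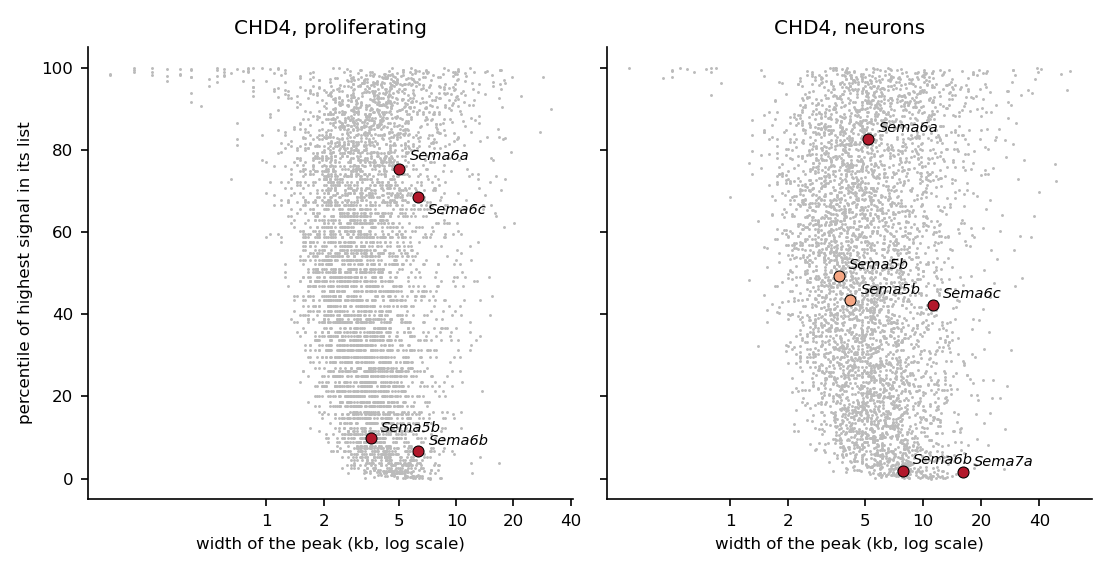
Width of each CHD4 peak (x axis, kb, log scale) against the percentile of its highest signal in its list (y axis), for proliferating cells and neurons. Grey points are all peaks of the list, dark red points are peaks at an end of a member and light points are inside one. Sema7a and Sema6b lie at the bottom in neurons, at the 1.52nd and 1.94th percentile, and Sema6a stands highest in both states.

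The longest members, Sema5a and Sema6d, had no CHD4 or p300 peak in their windows. Sema5a, a class 5 protein that binds plexin-B3, spans 452 kb (chromosome 15, 32244813 to 32696341, + strand). No peak of any list lay inside it or within 50 kb, and the nearest H3K4me3 peak was 224 kb away in both states. The nearest CHD4 peaks were 706 kb away in proliferating cells and 1068 kb in neurons. Such a blank was common: 35.0% of all genes, and 29.7% of the 2429 genes of at least 100 kb, had no peak of any list within 50 kb.

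Sema6d, a ligand of plexin-A1, spans 578 kb (chromosome 2, 124089943 to 124667789, + strand). Its 2 starts in the promoter table, at 124089969 and 124653581, had no peak. H3K4me3 was listed inside the gene in both states, from 124608851 to 124614700 in proliferating cells (74.2nd percentile of total signal) and from 124609001 to 124614450 in neurons (39.4th percentile). The highest signal lay 521 kb after the first start in both states, and 43.0 kb before the second start in proliferating cells. H3K4me3 inside the span and at neither end, in both states, was found at 1.56% of all genes, most of them far shorter than Sema6d. The nearest CHD4 peaks were 123 kb and 124 kb from the gene.

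**Figure D4:**
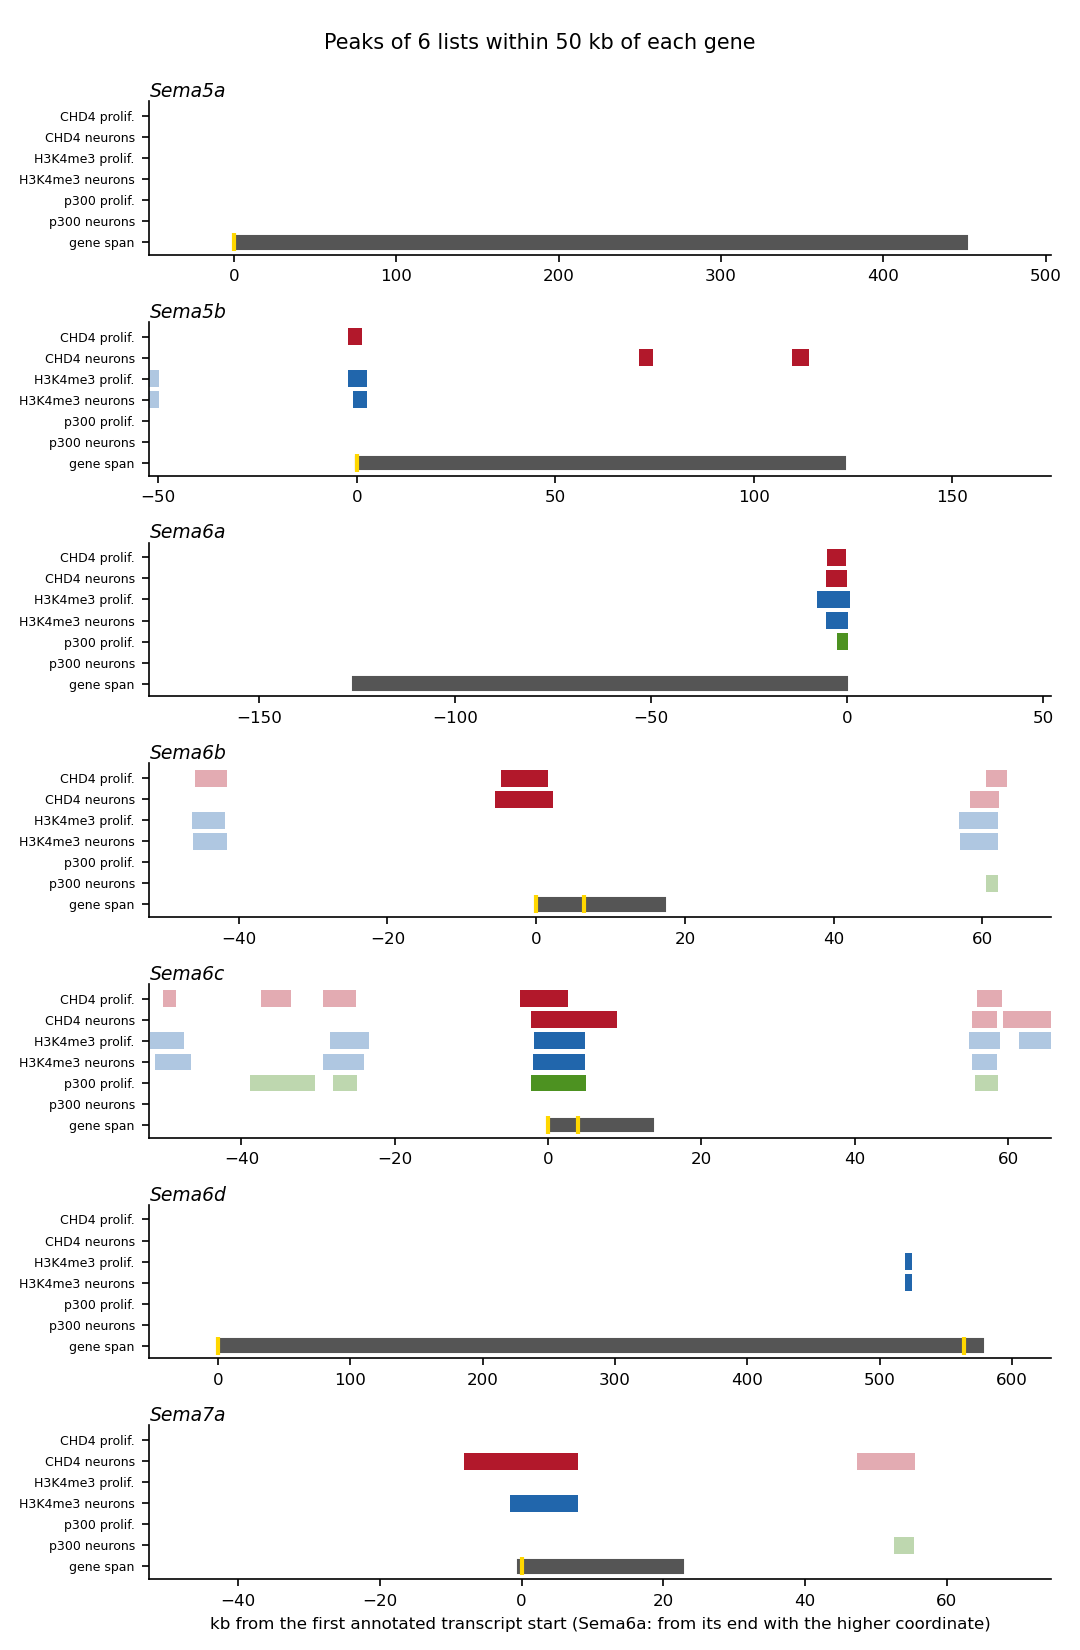
All peaks of the 6 lists within 50 kb of each member, in kb from the first annotated transcript start (Sema6a: from its end with the higher coordinate). Dark bars are peaks at or inside the gene, pale bars lie in the flank, the grey bar is the gene span and yellow ticks are annotated starts. Sema5a is blank, Sema6d holds H3K4me3 alone, and Sema6b and Sema6c have pale bars at the ends of neighbouring genes.

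Over the 7 windows, each CHD4 list had 10 peaks, but their places differed. The equal number held for the full lists and 50-kb flanks. With 25-kb flanks, and also with the stronger 50% of each list, there were 4 in proliferating cells and 7 in neurons. The 25-kb count turned in part on peaks at the limit. A proliferating peak 25019 bp from Sema6c was left out, and a neuron peak 24635 bp from Sema7a was kept. In proliferating cells 4 were at a gene end, 0 inside a gene and 6 in the flank, all 6 of them at an end of another gene. In neurons 4 were at a gene end, 2 inside a gene and 4 in the flank, of which 3 were at an end of another gene. A CHD4 peak lay in the window of 4 members in proliferating cells and of 5 in neurons, against 34.2% and 30.0% of all genes. Of the 10 peaks, 5 of the proliferating list had no counterpart in neurons and 4 of the neuron list none in proliferating cells, where the shares of all CHD4 peaks were 33.8% and 32.6%. Leaving out the flanks, it was 1 of 4 in proliferating cells and 3 of 6 in neurons. The 5 in proliferating cells alone became 1 with 25-kb flanks and 0 with the stronger 50% of each list, and the 4 in neurons alone became 2 with the stronger 50%. H3K4me3 of the same state overlapped 8 of the 10 in proliferating cells and 6 of 10 in neurons, against 42.2% and 26.8% of all CHD4 peaks. For p300 it was 5 of 10 and 3 of 10, against 58.1% and 20.0%. These shares are over CHD4 peaks wherever they lie, while every proliferating peak here was at an end of some gene. In both states the peaks overlapping H3K4me3 included flank peaks at the ends of neighbouring genes.

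Other genes of semaphorin signalling were counted in the same way. Of 12 receptors and co-receptors of these classes, 3 had CHD4 at an end in each state: Plxna1, Plxna2 and Plxnc1. The highest of them by total signal was Plxnc1, with percentiles of 63.6 when proliferating and 68.3 in neurons. Plxnb3, a receptor of Sema5a, and Plxna4, a receptor of Sema6a and Sema6b, had no peak at an end in any list. Of 17 intracellular partners of plexins and semaphorins, 2 had CHD4 in each state, Mical2 and Dpysl5. Of the secreted class 3 semaphorins, 0 of 7 and 1 of 7 had CHD4 at an end (Sema3f in neurons), and of the class 4 ones 3 of 6 and 1 of 6, with Sema4b in both states and Sema4a and Sema4c in proliferating cells only. Of 5 other plexins and neuropilins, 2 had it in proliferating cells and 4 in neurons, with Plxnb2 and Plxnd1 in neurons only. The shares of all genes to set beside these are those given above, 11.8% and 9.95%.

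**Figure D5:**
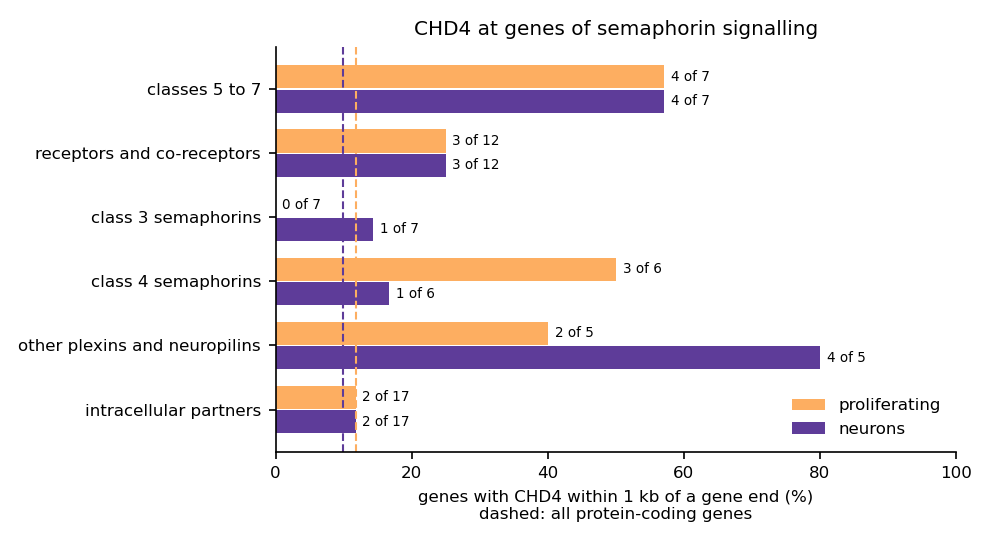
Percent of genes with CHD4 within 1 kb of a gene end (x axis) in proliferating cells and neurons, for the members and 5 other groups of semaphorin signalling genes (y axis). Counts stand beside the bars, and dashed lines mark all protein-coding genes, 11.8% in proliferating cells and 9.95% in neurons. The members have 4 of 7 in both states.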

How the data were processed

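CHD4, H3K4me3, p300 and IgG were profiled by CUT&Tag in proliferating iMOPs and iMOP-derived neurons, 1 library each. Bowtie2, deepTools and SEACR are named in the submitters' processing notes, with mm10 as the build and no versions or settings. The authors deposited 6 peak lists in the layout of SEACR, whose signal columns hold the total and the highest signal of a peak. The names of the lists call them merged, and what was merged, the scaling and the use of IgG are not given in the sources used here. Signal was therefore used only to rank peaks within a list. Nearly all peak edges fall on multiples of 50 bp, and positions are printed counted from 1.

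Peaks were matched with Python 3.11.15, numpy 2.4.6 and pandas 2.3.3 to RefSeq genes of GRCm38.p6. An overlap was at least 1 bp, a gene end 1 kb either side of an annotated end, and the window the gene with 50 kb either side. A single library per group allows no test. Starts, strands and sequences came from a RefSeq promoter table of the same build, which held 6 of the 7 members. The matching was tested on simulated peaks. Every member was named. Genes of other lists were named where CHD4 at an end differed between the states or ranked highest, together with some genes sharing a member's calls. Beyond this rule, Plxna1, Plxna2 and Mical2 were named as having CHD4 at an end in both states. Receptors named for their ligands and the genes said to be so were named after their values were seen. The members and lists were chosen with earlier results of these data known. Alternatives were another overlap, end window or flank, the stronger 50% of each list, lists of equal size and transcript starts only. Placing a peak by its highest signal was added after seeing the data.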

Additional observations from a re-analysis of the deposited data

How the results depend on the processing

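Of the alternatives to the counts of members and of peaks, 59 stayed within 1.5 times the reported count and 33 did not. The calls at single genes rested on how a peak was placed and on its strength. With at least 50% of a peak inside the end window, which no peak over 4 kb can meet, CHD4 was at 1 member in proliferating cells and 0 in neurons, H3K4me3 at 0 and 1, and p300 at 0 in proliferating cells. Placed by the region of highest signal, CHD4 was at 2 members in each state, without Sema6a and Sema6b, and proliferating p300 at 1. With the stronger 50% of each list, CHD4 was at 2 members in proliferating cells, without Sema5b and Sema6b, and p300 at 1. With lists of equal size and with transcript starts only, where Sema6a has no start in the table, proliferating p300 was at 1. Neither the 500-bp nor the 2.5-kb end window changed a count by over 1.5 times.

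For peaks in the windows, a 25-kb flank left 4 CHD4, 5 H3K4me3 and 3 p300 peaks in proliferating cells and 6 H3K4me3 and 0 p300 peaks in neurons. Without a flank there were 4, 4 and 2 in proliferating cells and 6, 5 and 0 in neurons. A 100-kb flank gave 4 p300 peaks in neurons. With the stronger 50% there were 4 CHD4 and 3 p300 peaks in proliferating cells and 0 p300 peaks in neurons, and with lists of equal size 2 proliferating p300 peaks. CHD4 peaks in proliferating cells only were 0 with the stronger 50% and 1 with a 25-kb flank or none. Those in neurons only were 2 with the stronger 50% and 7 with a 100-kb flank. Depth is unknown, so a peak missing from a list may lie under its threshold.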

Other observations

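The flanks of Sema6b and Sema6c held peaks at neighbouring genes. Cdc42se1 and Mllt11, a fusion partner of MLL in leukaemia, lie downstream of Sema6c. At their ends the proliferating H3K4me3 peak was 12100 bp wide and ranked 7th of 7472. The neuron CHD4 peak there was 15150 bp wide (96.2nd percentile of width), from 95219701 to 95234850 on chromosome 3. Both overlapped a peak of the same target in the other state, and each overlapped the other target in its own state. Upstream of Sema6c, p300 in proliferating cells spanned 8500 bp at the ends of Vps72, Scnm1 and Tmod4, an actin-capping protein gene, from 95121551 to 95130050, with CHD4 inside it and neither in neurons. At the ends of Ubxn6 and Hdgfl2 near Sema6b, p300 was listed in neurons but not in proliferating cells, from 56078201 to 56079900 on chromosome 17. This p300 peak was narrow (1700 bp, 1.45th percentile of width), at the 20.0th percentile of total and the 63.4th of highest signal. CHD4 was there in both states at the 96.1st and 95.9th percentile of highest signal. These genes were named after their values were seen.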
